A study of Mus musculus with 6 samples.

Results

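The NF-κB family of the mouse has 5 subunit genes, Nfkb1, Nfkb2, Rel, Rela and Relb, and all 5 were followed here by symbol among the 56748 Ensembl genes counted in each library. They were compared between bone marrow-derived dendritic cells (BMDCs) of wild-type (WT) mice and of mice with a global Nfkb2-/- knockout, with 3 RNA-seq libraries per genotype. Global means that every cell of the animal, and not only the dendritic cells, lacked an intact Nfkb2 gene, and the exons missing from the allele are not given in the sources used here. The line came from the institute's own animal facility. Both genotypes were cultured for 5 days with 20 ng/mL GM-CSF, a growth factor for myeloid progenitors, and for 4 more days with 20 ng/mL GM-CSF and 10 ng/mL IL-4. None of the cultures was stimulated, polyadenylated RNA was sequenced, and the strain, ages and sexes of the mice for RNA-seq are not given in the sources used here. The study describes the libraries of a genotype as independent biological replicates, and the labels do not say whether they came from separate mice.

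NF-κB transcription factors are dimers of these 5 proteins. RelA and c-Rel, the product of Rel, carry transactivation domains and mostly pair with p50, which is made from the Nfkb1 precursor p105, and inhibitory IκB proteins hold them in the cytoplasm until the canonical pathway is triggered. In the noncanonical pathway, receptors such as the lymphotoxin β receptor stabilize the kinase NIK, the Nfkb2 precursor p100 is processed to p52, and RelB:p52 dimers enter the nucleus. In dendritic cells c-Rel and RelB are known for their parts in maturation and cytokine expression.

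Total counts were 29863927 to 55623068 per library, and 21849 named genes had at least 50 counts over the 6 libraries and were tested. Levels are given as CPM, counts scaled to a common library size, after TMM normalization, which corrects that size for differences in composition. All 5 subunit genes passed the filter, each with a level of at least 32.3 CPM in every library, so counting error was small beside the spread between libraries. The dendritic cell markers Cd74 and H2-Aa measured 2671 ± 930 and 1633 ± 468 CPM in WT BMDCs (SD, n = 3), and none of the 12 markers on the list was at 0. In Nfkb2-/- replicate 1, 47952 genes had at least 1 count, against 27692 to 33841 in the other libraries, and the 6 lymphocyte markers tested summed to 7.80 CPM, against 0.748 to 1.75 CPM elsewhere. The macrophage markers summed to 193 CPM in WT replicate 3 and to 729 to 1319 CPM in the other 5 libraries.

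Nfkb2 mRNA fell in Nfkb2-/- BMDCs to 15.2% of its WT level. The mRNAs of Rel, Rela and Relb lay at 68.3%, 63.1% and 62.9% of WT, differences that did not pass the adjusted test, and Nfkb1 mRNA was at 105% of WT. A gene was called when its Benjamini-Hochberg adjusted p in edgeR's quasi-likelihood test was under 0.05 and its fold change over 1.2, and by that rule 1 of the 5 subunit genes was called. Over all 21849 genes tested, 1.14% were called, made up of 0.682% of all genes that were lower and 0.453% that were higher in Nfkb2-/- BMDCs.

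Nfkb2 (ENSMUSG00000025225, chr19:46304320-46312385 on the plus strand of GRCm38 in GENCODE M21) encodes p100 and is the gene targeted in the knockout. It measured 215, 154 and 355 CPM in WT replicates 1, 2 and 3 and 44.8, 32.3 and 32.6 CPM in Nfkb2-/- replicates 1, 2 and 3. Every Nfkb2-/- library lay below every WT library, and within the knockouts replicate 1 was the highest. The means were 241 ± 103 CPM in WT and 36.6 ± 7.13 CPM in Nfkb2-/- BMDCs (SD, n = 3 each). The log2 fold change of Nfkb2-/- over WT was -2.72 (standard error 0.33, 95% interval -3.50 to -1.94, adjusted p = 0.0307 from edgeR), a 6.59-fold difference. Between 981 and 1745 counts on Nfkb2 remained in each knockout library, and since the counts are per gene they do not show on which exons these reads lay.

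The call for Nfkb2 depended on which library was left out. The log2 fold change without WT replicate 1 was -2.80 (adjusted p = 0.128), and without Nfkb2-/- replicate 1, 2 or 3 it was -2.90, -2.68 and -2.64 (adjusted p = 0.0876, 0.163 and 0.156 from edgeR). The difference kept its direction in all of these edgeR fits, in which no gene passed the adjusted threshold and 2325 to 4088 genes had an unadjusted p under 0.05. Without WT replicate 2 or 3 Nfkb2 was called, at -2.96 and -2.33.

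Psd lies on the opposite strand and shares 299 bp of exon with Nfkb2. It measured 26.3, 19.5 and 35.2 CPM in WT and 10.1, 4.52 and 5.22 CPM in Nfkb2-/- libraries, with no overlap between the genotypes and a log2 fold change of -2.03 (adjusted p = 0.0541 from edgeR). AC114539.1, a noncoding RNA that is also antisense to Nfkb2 over 531 bp, had a log2 fold change of 0.00. Whether the counting used strand is not given in the sources used here, and without it reads of Nfkb2 and of its antisense partners cannot be told apart.

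**Figure D1:**
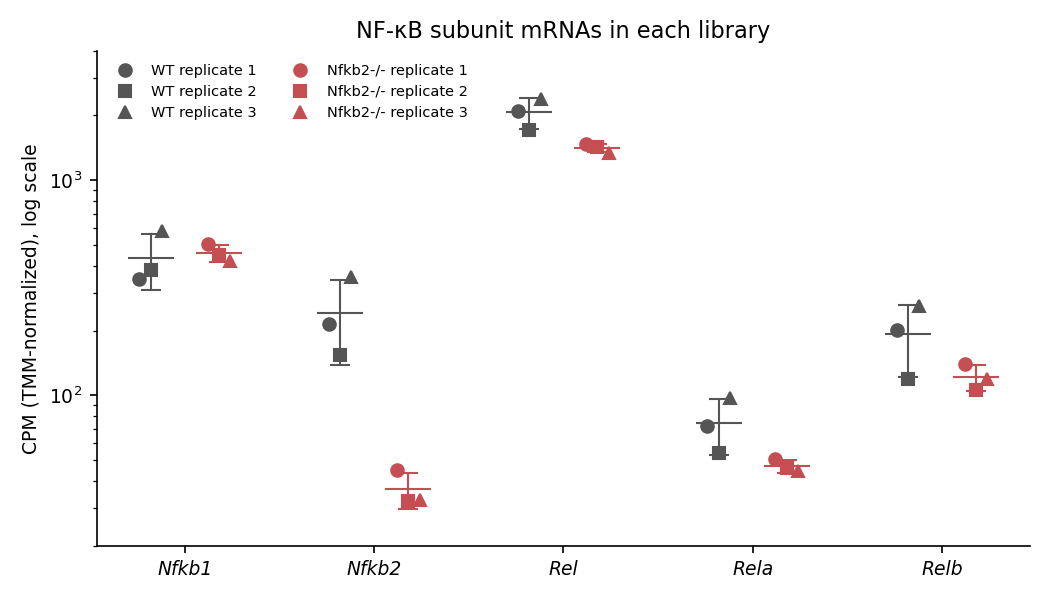
Levels of the 5 subunit mRNAs in each library, in TMM-normalized CPM on a log axis, with WT in grey and Nfkb2-/- in red. Points are libraries, the horizontal line is the mean and the bars are ± SD (n = 3). Nfkb2 separates the genotypes most widely, Nfkb1 and Relb overlap, and WT replicate 3 is the highest WT library for every gene.

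Promoter sequence from RefSeq (GRCm38.p6, 250 bases before to 50 after a start site) was held for Nfkb2, Rel and Rela, with 3 windows for Nfkb2 and 1 each for the other two. Both strands were searched for the κB consensus, the motif that NF-κB dimers recognize, and overlapping matches were counted. The consensus occurred in all 3 Nfkb2 windows and in the Rel window, and not in the Rela window. Of all 32851 windows in the table, 8.46% held the consensus. The sites are shown because Nfkb2 and Rel are themselves known targets of NF-κB dimers. Each is printed on the strand of its gene with 10 bases on either side, and capitals mark the match.

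Nfkb2, 39 bases before the first start, chr19:46304688-46304717: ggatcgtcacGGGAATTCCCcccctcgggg

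Nfkb2, 11 bases before the first start, chr19:46304716-46304745: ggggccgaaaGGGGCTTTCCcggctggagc

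Nfkb2, 236 bases before the second start, chr19:46305449-46305478: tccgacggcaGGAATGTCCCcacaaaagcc

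Nfkb2, 225 bases before the third start, chr19:46305695-46305724: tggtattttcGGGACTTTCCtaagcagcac

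Rel, 92 bases before its start, chr11:23771042-23771071: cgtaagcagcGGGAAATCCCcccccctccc

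The first Nfkb2 site and the Rel site each overlapped a second match that began 1 base further along and read on the opposite strand, which made 7 distinct matches in all. The Nfkb2 site at 236 bases matched on the opposite strand, and the site before the third start also lay 10 bases after the second start. A match is a stretch of letters, and no binding was measured in these libraries.

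Rel (ENSMUSG00000020275, chr11:23736847-23770970, minus strand) was the most abundant subunit mRNA in every library. It measured 2090, 1720 and 2394 CPM in WT and 1466, 1426 and 1345 CPM in Nfkb2-/- BMDCs. The lowest WT library lay above the highest Nfkb2-/- library. The means were 2068 ± 338 and 1413 ± 61.5 CPM (SD, n = 3 each), and the log2 fold change was -0.55 (standard error 0.19, 95% interval -0.996 to -0.104, adjusted p = 0.203 from edgeR). Under DESeq2, which called 8.65% of all genes, Rel was also called, with a log2 fold change of -0.57 and an adjusted p of 0.0258, whereas over all alternatives its adjusted p ranged from 0.0258 to 0.657. The DESeq2 fit thus called 2 of the 5 subunit genes, Nfkb2 and Rel.

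Rela (ENSMUSG00000024927, chr19:5637483-5648130, plus strand) encodes RelA, or p65, the usual partner of p50. Its level was 72.3, 54.1 and 96.9 CPM in WT and 50.7, 45.8 and 44.3 CPM in Nfkb2-/- BMDCs. The genotypes did not overlap, although WT replicate 2 lay close to Nfkb2-/- replicate 1. The log2 fold change was -0.66 (standard error 0.22, 95% interval -1.19 to -0.14, adjusted p = 0.191 from edgeR), between means of 74.4 ± 21.5 and 47.0 ± 3.30 CPM (SD, n = 3 each). Leaving out WT replicate 2 gave an estimate of -0.85, and leaving out WT replicate 3 gave -0.43.

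Relb (ENSMUSG00000002983, chr7:19606217-19629438, minus strand) encodes the partner of p52. It measured 201, 119 and 260 CPM in WT and 140, 106 and 119 CPM in Nfkb2-/- BMDCs. WT replicate 2 fell within the range of the knockout libraries, so that the genotypes overlapped, and the other two WT libraries lay above all 3 of them. The log2 fold change was -0.67 (standard error 0.28, 95% interval -1.33 to -0.0042, adjusted p = 0.290 from edgeR), between means of 193 ± 71.0 and 122 ± 16.9 CPM (SD, n = 3 each). The estimate moved with single WT libraries, to -0.92 without WT replicate 2 and to -0.39 without WT replicate 3.

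Nfkb1 (ENSMUSG00000028163, chr3:135584655-135691547, minus strand), the source of p50, stood apart from the other subunits. Its level was 346, 383 and 582 CPM in WT and 504, 450 and 423 CPM in Nfkb2-/- BMDCs. All 3 knockout values lay inside the WT range. The log2 fold change was 0.07 (standard error 0.23, 95% interval -0.46 to 0.60, adjusted p = 0.899 from edgeR).

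By overlap alone, 3 of the 5 subunit genes, Nfkb2, Rel and Rela, were lower in all Nfkb2-/- libraries than in all WT libraries, against 12.0% of all genes tested. An unadjusted p under 0.05 with a lower level was obtained for 4 of the 5, against 8.04% of all genes, while 17.1% of all genes had an unadjusted p under 0.05 in either direction. The median log2 fold change of the 5 genes was -0.66 and that of all genes tested was 0.08. Nfkb2, the gene targeted in the knockout, is included in both counts and in the median, and its change comes with the design. Apart from it, Rel and Rela separated without overlap. Rel, Rela and Relb were lower at an unadjusted p under 0.05 from edgeR. For each gene alone, the exact permutation test (two-sided) gave p = 0.1 for Nfkb2, Rel and Rela, the smallest value that 3 libraries against 3 can give, p = 0.3 for Relb and p = 0.7 for Nfkb1.

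**Figure D2:**
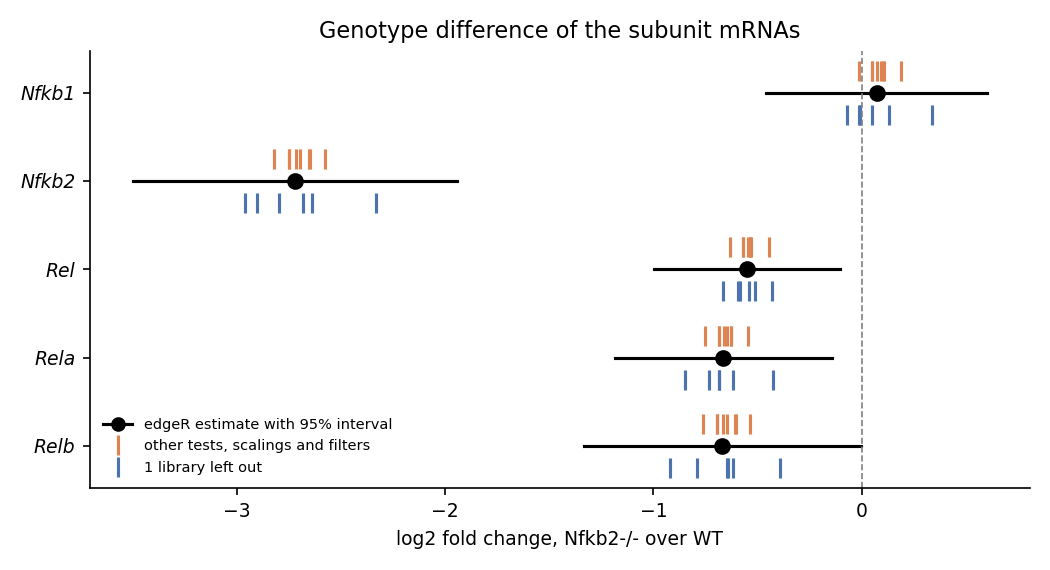
Log2 fold change of each subunit mRNA, Nfkb2-/- over WT. Black points and lines are edgeR estimates with 95% intervals, orange ticks are other tests, scalings and filters, and blue ticks are fits with 1 library left out. Nfkb2 lies between -2.96 and -2.33 in every alternative, Rel, Rela and Relb stay below 0, and Nfkb1 lies on both sides of 0.

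The subunit mRNAs varied more between WT libraries than between knockout libraries. The SD of log2 CPM was 0.61 in WT and 0.27 in Nfkb2-/- BMDCs for Nfkb2, 0.58 and 0.20 for Relb, 0.42 and 0.10 for Rela, 0.40 and 0.13 for Nfkb1, and 0.24 and 0.063 for Rel. Over the 10646 genes averaging 5 CPM or more, the median SD was 0.24 in WT and 0.19 in Nfkb2-/- libraries. WT replicate 3 was the highest WT library for all 5 genes, and WT replicate 2 was the lowest for each but Nfkb1.

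Ratios of 2 subunit mRNAs within a library do not depend on how libraries are scaled, and 6 such ratios were compared. The ratios of Rel and Relb to Rela overlapped between the genotypes. Rel over Rela was 28.9, 31.8 and 24.7 in WT and 28.9, 31.1 and 30.3 in Nfkb2-/- libraries, a difference of 0.09 in log2 ratio (exact permutation p = 0.6, adjusted p = 0.72). Relb over Rela was 2.77, 2.20 and 2.68 in WT and 2.76, 2.31 and 2.68 in Nfkb2-/- libraries, a difference of 0.02 (exact permutation p = 0.9, adjusted p = 0.9).

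The ratios that contain Nfkb1 or Nfkb2 separated the genotypes. Nfkb1 over Rela was 4.78, 7.08 and 6.00 in WT and 9.94, 9.82 and 9.54 in Nfkb2-/- libraries. All 3 knockout libraries lay above all WT libraries, by 0.73 in mean log2 ratio or 1.66-fold. Relb over Nfkb1 was 0.580, 0.311 and 0.447 in WT and 0.277, 0.236 and 0.281 in Nfkb2-/- libraries, lower without overlap by 0.71 in log2 ratio. Thus the p50 precursor mRNA was the more abundant relative to both Rela and Relb in the knockout libraries. Nfkb2 over Rela went from 2.98, 2.84 and 3.66 in WT to 0.885, 0.705 and 0.736 in Nfkb2-/- libraries, and Nfkb2 over Nfkb1 from 0.623, 0.402 and 0.610 to 0.0890, 0.0718 and 0.0772. Each of these 4 ratios had an exact permutation p of 0.1 (two-sided), the smallest that 3 against 3 allows, and an adjusted p of 0.15 over the 6 ratios, so that none could pass 0.05.

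**Figure D3:**
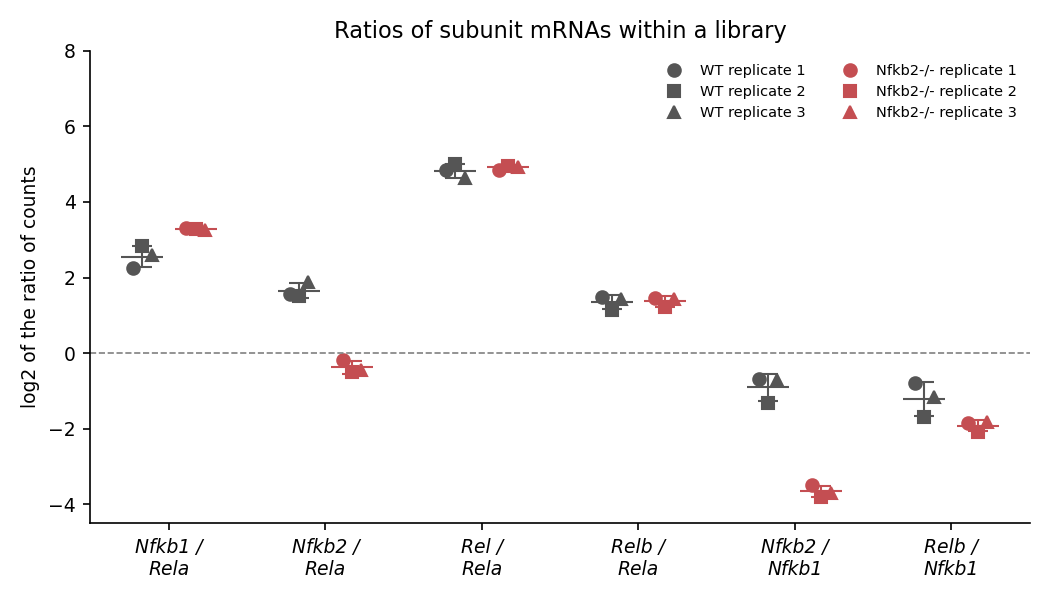
Log2 of the ratio of 2 subunit mRNAs within each library, with WT in grey and Nfkb2-/- in red. Lines are means and bars are ± SD (n = 3). Rel and Relb over Rela overlap between genotypes, while Nfkb1 over Rela is higher and the ratios with Nfkb2 on top are lower in all knockout libraries.

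Levels of different genes were compared as CPM per kb of exon, all exons of a gene being joined. In WT BMDCs Rel was the highest at 277 ± 45.2 CPM per kb, followed by Nfkb2 at 52.6 ± 22.5, Relb at 49.7 ± 18.3, Nfkb1 at 36.2 ± 10.5 and Rela at 24.2 ± 7.01 (SD, n = 3 each). Among the 21849 genes tested, Rel ranked 79 in WT on this scale, and Nfkb2, Relb, Nfkb1 and Rela ranked 689, 741, 1158 and 1796. Rel lay 5.26-fold above Nfkb2 in WT, with ranges apart, whereas each of the other neighbours in this order overlapped in its range over the 3 WT libraries. In Nfkb2-/- BMDCs the order was Rel at 189 ± 8.24, Nfkb1 at 38.1 ± 3.41, Relb at 31.3 ± 4.35, Rela at 15.3 ± 1.08 and Nfkb2 at 7.99 ± 1.56 CPM per kb. Nfkb2 thus held the last place of the 5 in all 3 knockout libraries, with a rank of 5047 among all genes tested, and among neighbours in this order only Nfkb1 and Relb overlapped in range.

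The place of Nfkb1 in the order depended on the length used. Its joined exons span 12061 bp and its longest transcript 4149 bp, and over the longest transcript it measured 105 ± 30.6 CPM per kb in WT and 111 ± 9.92 in Nfkb2-/- BMDCs (SD, n = 3 each), second to Rel in every library. The lengths of the other subunit genes differed less, and Rel has the same length of 7466 bp by both measures.

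**Figure D4:**
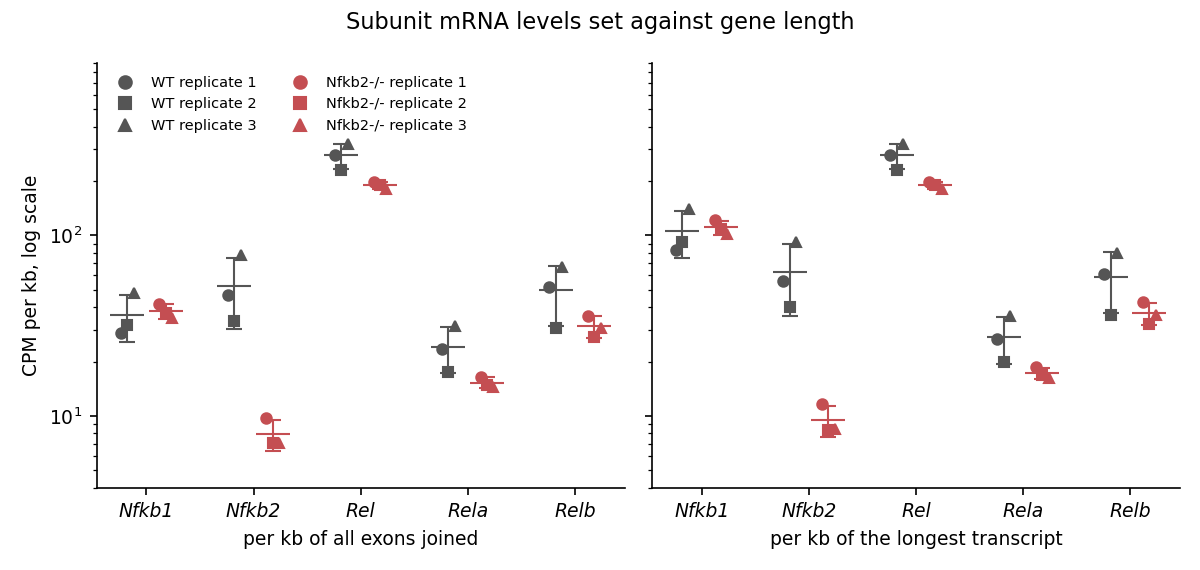
Subunit mRNA levels in CPM per kb on a log axis, over all joined exons (left) and over the longest transcript (right), with WT in grey and Nfkb2-/- in red. Points are libraries, lines are means and bars are ± SD (n = 3). Rel is the highest in every library with both lengths, and Nfkb1 moves up to about 100 CPM per kb with the longest transcript.

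The genes most like each subunit gene over the 6 libraries were sought among the 10645 other genes averaging 5 CPM or more, by the root mean square difference of log2 CPM centred on each gene's mean. For Nfkb2 they were Msrb3, Bmp1 and Slc4a8 (0.17, 0.18 and 0.19 log2 units), all 3 of which were called lower in Nfkb2-/- BMDCs. Slc4a8, a bicarbonate transporter, measured 164, 93.8 and 226 CPM in WT and 34.3, 25.4 and 29.3 CPM in Nfkb2-/- libraries, the same order of libraries within WT as Nfkb2. The genes were picked by this likeness, so neither their lower level in the knockouts nor their order of libraries is a separate result. For Rela they were Gas2l1, Wdtc1 and Fuca1 (0.018, 0.029 and 0.037), for Rel Mt1, Nxf1 and Gm37702 (0.041, 0.046 and 0.047), for Relb Adcy6, Cacnb3 and Cxcr4 (0.093, 0.10 and 0.10), and for Nfkb1 Sumo3, Rpl14-ps1 and Itpr3 (0.039, 0.048 and 0.052). Among the subunits themselves, Rela stood at place 23 in likeness to Relb (0.13) and Rel at place 98 in likeness to Rela (0.12), while the nearest subunit to Nfkb1, Rel, stood at place 5070 (0.37).

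In their sum, markers of mature dendritic cells followed Nfkb2, Rel, Rela and Relb in the order of the WT libraries. The 12 markers on the list, which include the chemokine receptor Ccr7 and the actin bundler Fscn1, summed to 15073, 11106 and 21776 CPM in WT and to 10629, 10675 and 10170 CPM in Nfkb2-/- libraries. WT replicate 3 was the highest and WT replicate 2 the lowest, as for Nfkb2, Rel, Rela and Relb, and all knockout sums lay below all WT sums. Ccl22 alone made up 8135 of the mean sum of 15985 CPM in WT. Cd80, Cd86, Socs2 and Il4i1 did not share the order of the sum. None of the 12 was called in edgeR, and 8 had an unadjusted p under 0.05, against 17.1% of all genes. DESeq2 called 4, against 8.65% of all genes, and limma voom called 0. Of these 8 at the unadjusted threshold, 7 were lower and 1, Cd86, was higher. Over the list 9 had a log2 fold change below 0, with a median of -0.76 against 0.08 over all genes. Fscn1 measured 1317 ± 570 CPM in WT and 470 ± 50.2 in Nfkb2-/- BMDCs (SD, n = 3 each; adjusted p = 0.0902 from edgeR), Ccr7 1229 ± 632 and 627 ± 41.0, and Ccl22, a chemokine of mature dendritic cells, 8135 ± 2437 and 5752 ± 363. Cd86, a costimulatory ligand, was higher without overlap, at 292, 369 and 543 CPM in WT and 580, 641 and 575 CPM in Nfkb2-/- libraries (log2 fold change 0.58, adjusted p = 0.284 from edgeR). No marker on the list was at 0 in any group. In bulk RNA, fewer cells of a type and less RNA per cell cannot be told apart, and the part of these markers in the subunit differences was not tested.

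The sum of the general dendritic cell markers, carried by Cd74, Cst3 and H2-Aa, had the same order within WT but overlapped between the genotypes. It was 8813, 7161 and 13118 CPM in WT and 12049, 10918 and 11831 CPM in Nfkb2-/- libraries. In edgeR 1 of the 12 was called, Itgax, against 1.14% of all genes. Itgax encodes CD11c and rose from 187 ± 80.1 to 743 ± 26.5 CPM (SD, n = 3 each; log2 fold change 1.99, adjusted p = 0.0414 from edgeR). Single markers did not all follow the sum, since Itgax and Mgl2, a C-type lectin gene, were highest in WT replicate 2 and lowest in WT replicate 3. Mgl2 measured 132, 299 and 37.7 CPM in WT and 599, 694 and 703 CPM in Nfkb2-/- libraries. DESeq2 called Mgl2 beside Itgax, against 8.65% of all genes. Zbtb46 lay lower in the knockouts without overlap, as did 12.0% of all genes tested. It measured 168, 151 and 218 CPM in WT and 115, 136 and 119 CPM in Nfkb2-/- libraries (log2 fold change -0.54, adjusted p = 0.192 from edgeR). Of the 12 markers, 4 had an unadjusted p under 0.05 in edgeR, 1 of them lower, against 17.1% of all genes. The most abundant markers on the list, Cd74, Cst3 and H2-Aa, had log2 fold changes of 0.12, 0.49 and -0.25.

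The summed markers of other cells overlapped between the genotypes. The 12 macrophage markers, led by Csf1r, Mrc1 and C1qb, summed to 1167, 1319 and 193 CPM in WT and to 729, 782 and 934 CPM in Nfkb2-/- libraries, so that the WT library with the highest subunit levels had the lowest macrophage sum. None of them was called in edgeR. Apoe, an apolipoprotein gene, had an unadjusted p under 0.05 and was called by DESeq2, the only 1 of the list in both cases. Over all genes these shares were 17.1% and 8.65%. Apoe measured 82.3, 56.5 and 3.68 CPM in WT and 2.25, 0.725 and 0.898 CPM in Nfkb2-/- libraries, lower without overlap. Csf1r, the receptor for M-CSF, measured 239, 250 and 37.2 CPM in WT against 115, 131 and 157 CPM in the knockouts. The 9 granulocyte markers tested, among them S100a8, S100a9 and Ngp, summed to 171, 247 and 87.3 CPM in WT and 122, 126 and 130 CPM in Nfkb2-/- libraries. None of these was called in edgeR, and 4, all lower in the knockouts, had an unadjusted p under 0.05, against 17.1% of all genes. DESeq2 called 3, all lower, against 8.65% of all genes in either direction. Over this list 8 had a log2 fold change below 0 and 1 above 0, with a median of -0.78 against 0.08 over all genes. S100a8 alone made up 87.1 of the mean sum of 126 CPM in the knockouts. The 6 mast cell and basophil markers tested summed to 46.5 to 57.6 CPM in all libraries. In edgeR Cpa3, a mast cell protease, fell from 7.98 ± 2.44 to 2.23 ± 0.328 CPM (SD, n = 3 each; adjusted p = 0.0413 from edgeR), and Kit was not called. Gata2, a transcription factor of mast cells, was higher without overlap, at 1.31 ± 0.610 and 3.64 ± 0.415 CPM, and was called by DESeq2 and not by edgeR. The 4 erythroid and stromal markers tested summed to 13.3 to 57.5 CPM, with none called in edgeR or DESeq2 and none at an unadjusted p under 0.05. The part of these markers in the subunit differences was not tested.

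**Figure D5:**
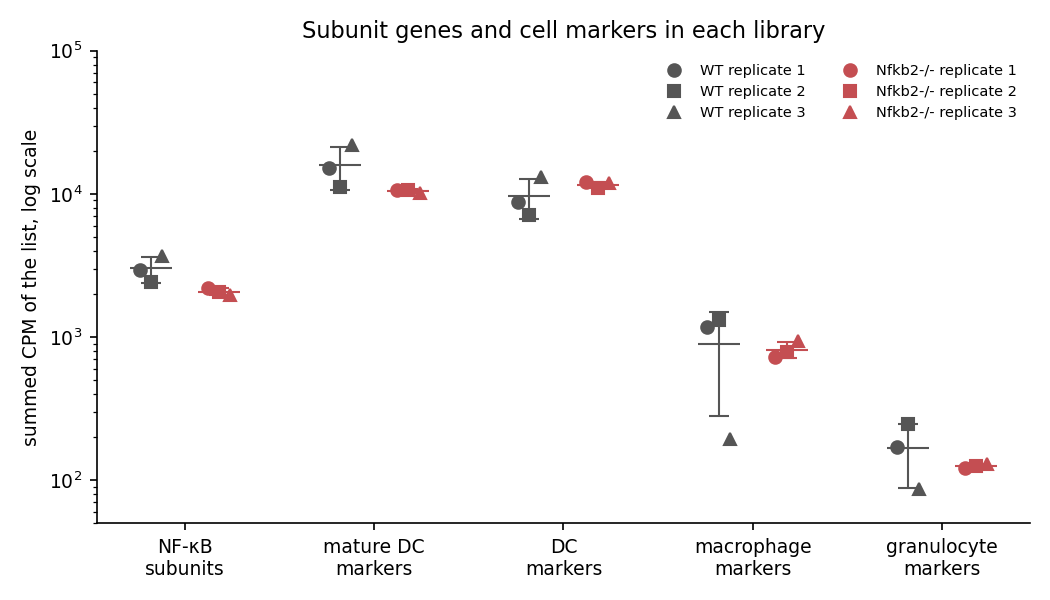
Summed CPM, on a log axis, of the 5 subunit genes and of 4 marker lists in each library, with WT in grey and Nfkb2-/- in red. Lines are means and bars are ± SD (n = 3). The sums of the subunit genes and of both lists of dendritic cell markers are ordered alike among the WT libraries. The macrophage sum is lowest in WT replicate 3.

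Around the subunits, 6 lists of pathway genes held 80 genes, of which 73 were tested, 4 were called lower and 2 higher in Nfkb2-/- BMDCs. Over all genes tested, 0.682% were called lower and 0.453% higher. Upstream, of 14 tested receptors and ligands of the noncanonical pathway, 1 was called in edgeR, Ltb. DESeq2 called 3, Lta, Ltb and Tnfrsf1b, against 8.65% of all genes. Ltb encodes lymphotoxin β, a ligand of the lymphotoxin β receptor, and it rose from 0.878, 1.35 and 0.688 CPM in WT to 4.61, 4.58 and 4.77 CPM in Nfkb2-/- libraries (log2 fold change 2.25, adjusted p = 0.0332 from edgeR). Lta, which encodes the partner of lymphotoxin β, measured 0, 0.492 and 0.241 CPM in WT and 4.08, 4.35 and 4.49 CPM in the knockouts (adjusted p = 0.0746 from edgeR). Without overlap, 5 genes of the list lay lower in the knockouts, against 12.0% of all genes tested. A further 4 lay higher without overlap, and the share of all genes that did so was not counted. The most abundant receptors were among the lower ones without passing the edgeR test. The GM-CSF receptor chain Csf2rb measured 2556 ± 532 and 1841 ± 87.2 CPM, the TNF receptor Tnfrsf1b 500 ± 117 and 230 ± 7.50 CPM (adjusted p = 0.0522 from edgeR), and Tnfrsf11a, which encodes RANK, 385 ± 118 and 265 ± 1.75 CPM (SD, n = 3 each). Csf2ra, the other GM-CSF receptor chain, was higher in all knockout libraries, at 134 ± 26.5 and 214 ± 48.4 CPM (SD, n = 3 each; adjusted p = 0.189 from edgeR). The median log2 fold change of the list was -0.10.

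Of 15 tested kinases, TRAFs and cIAPs, which relay the signal to p100, 1 was called in edgeR and in DESeq2. Over all genes 1.14% and 8.65% were called. The median log2 fold change of the list was -0.17. Btrc, a part of the ubiquitin ligase that recognizes phosphorylated IκB and p100, fell from 35.9, 33.3 and 34.3 CPM in WT to 19.1, 18.5 and 19.9 CPM in Nfkb2-/- libraries (log2 fold change -0.85, adjusted p = 0.0420 from edgeR). Map3k14, which encodes NIK, measured 333, 202 and 508 CPM in WT and 256, 225 and 222 CPM in the knockouts, with overlap and the same order of WT libraries as Nfkb2 and Relb. The kinase adaptor Tab2 and the cIAP gene Birc3 had log2 fold changes of 0.01 and -0.46, and neither passed the test.

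Among 10 inhibitors and precursor partners, 9 had a log2 fold change below 0, and the median was -0.47. In edgeR 1 was called and in DESeq2 3, against 1.14% and 8.65% of all genes. Map3k8 encodes the kinase Tpl2, which is bound by p105, and it fell from 56.9, 62.5 and 70.1 CPM in WT to 29.4, 36.1 and 34.6 CPM in Nfkb2-/- libraries (log2 fold change -0.92, adjusted p = 0.0474 from edgeR). Nfkbia, which encodes IκBα, measured 279, 265 and 501 CPM in WT and 172, 175 and 172 CPM in the knockouts, without overlap and at an adjusted p of 0.117 from edgeR, and was called by DESeq2, as was Nfkbib, which encodes IκBβ. The A20 gene Tnfaip3 and its partner Tnip1 likewise lay lower without overlap, at 176 ± 48.3 and 111 ± 9.16 CPM and at 79.7 ± 23.2 and 54.2 ± 1.97 CPM (SD, n = 3 each), and neither was called by edgeR or DESeq2.

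Downstream, the canonical target genes had no common direction, with 11 of the 23 tested below 0, 12 above 0 and a median log2 fold change of 0.02. Of these, edgeR called 2, both lower, against 1.14% of all genes. DESeq2 called 8, against 8.65% of all genes, of which 6 were lower and 2, Tnf and Cxcl10, higher. Il12b, which encodes the p40 chain of IL-12 and IL-23, had a log2 fold change of -3.09 and Irf1, an interferon-pathway transcription factor, one of -1.17 (adjusted p = 0.0489 and 0.0461 from edgeR). The most abundant targets were Cd83 and Cd80, which are also on the mature dendritic cell list, and the chemokine Ccl5, with log2 fold changes of -1.12, 0.02 and -1.52. None of the 3 passed the edgeR test, and DESeq2 called Cd83 and Ccl5. Tnf measured 7.14, 13.0 and 2.13 CPM in WT and 28.1, 26.9 and 28.7 CPM in Nfkb2-/- libraries, higher without overlap at an adjusted p of 0.143 from edgeR.

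Of 6 tested noncanonical target genes, edgeR and DESeq2 each called 1, Ccl17, against 1.14% and 8.65% of all genes. Ccl17 encodes a chemokine that attracts CCR4-bearing T cells. It rose from 161, 361 and 432 CPM in WT to 2385, 2472 and 2357 CPM in Nfkb2-/- libraries (log2 fold change 2.92, adjusted p = 0.0307 from edgeR). Ccl22, which acts on the same receptor, and Axin1, a scaffold of the β-catenin destruction complex, were not called. Their log2 fold changes were -0.50 and -0.32. Ccl22 overlapped between the genotypes, whereas Axin1 lay lower in the knockouts without overlap (adjusted p = 0.356 from edgeR), as did 12.0% of all genes tested. From its own analysis of this RNA-seq, the study reports a significant decline of Axin1 mRNA in Nfkb2-/- BMDCs. It also draws on RT-qPCR and immunoblots of Axin1 in BMDCs of mice lacking Relb or Nfkb2 in CD11c-expressing cells. Published RelB binding peaks at Axin1 in WT BMDCs are part of its evidence too. None of these other measurements was examined here. The study took a panel of 5 genes from earlier work on RelB-deficient dendritic cells, as genes for which RelB matters. None of the 5 was called in edgeR, DESeq2 or limma voom, and none had an unadjusted p under 0.05 in edgeR. In edgeR without a filter beyond 1 count, 1 of the 5 was called, against 3.50% of all genes. Fgr measured 58.1, 75.9 and 13.1 CPM in WT and 102, 105 and 116 CPM in Nfkb2-/- libraries, higher without overlap (adjusted p = 0.348 from edgeR). Top1, Crk, Gpd2 and Cript overlapped between the genotypes, with log2 fold changes of -0.15, 0.13, 0.38 and 0.20.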

How the data were processed

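Polyadenylated RNA from WT and Nfkb2-/- BMDCs was sequenced in 3 libraries per genotype. Per the submitters' processing notes, reads were mapped with HISAT2 and the build is GRCm38 (mm10). The counting tool, annotation and use of strand are not given in the sources used here. The authors deposited whole-number counts per Ensembl gene without normalization. A table joining the 6 libraries was not used.

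Genotype and replicate were taken from the sample labels. Genes with a GENCODE M21 name and at least 50 counts over the 6 libraries were kept, 21849 of 56748. IDs without a name held 1.01% to 1.75% of a library's counts and stayed out of library sizes. Counts were TMM-normalized and compared with edgeR 4.0.16 (glmQLFit, glmQLFTest) in R 4.3.3, with Benjamini-Hochberg adjustment over all genes tested. The standard error was the log2 fold change divided by the square root of F. A call required an adjusted p under 0.05 and a fold change over 1.2. Alternatives used DESeq2 1.42.0, limma 3.58.1 (voom), RLE size factors, total counts, 3 other filters, the replicate number as a block, and each library left out in turn. Ratios were computed with a prior count of 2 and tested with exact permutation tests in scipy 1.17.1. The scripts were tested on simulated data.

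The 5 members and all lists were chosen with earlier results of these data known, and the motif search was chosen after the data were seen. Besides the members and the RelB panel, genes named were the 3 most abundant and every called gene of each list, and the 3 genes most like each member. Apoe, Cd86, Csf2ra, Cxcl10, Il4i1, Lta, Mgl2, Nfkbib, Socs2, Tnf and Zbtb46, and Psd and AC114539.1 as genes that overlap Nfkb2, were chosen after their values were seen. At this depth 3 counts correspond to about 0.1 CPM or less, so the spread between libraries, not counting error, limits the precision. Replicate numbers were checked for pairing by the correlation of deviations from the genotype means.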

Additional observations from a re-analysis of the deposited data

How the results depend on the processing

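With 3 libraries per genotype the calls depended on single libraries and on the test. Nfkb2 kept its direction in all 14 alternatives, from -2.96 to -2.33 on the log2 scale, and Rel, Rela and Relb stayed below 0 in all of theirs. Nfkb2 missed the adjusted threshold with the replicate number as a block (-2.65, adjusted p = 0.0594 from edgeR) and without WT replicate 1 or any 1 of the Nfkb2-/- libraries. Rel passed under DESeq2 (-0.57, adjusted p = 0.0258, against 0.0258 to 0.657 over its alternatives). Nfkb1 turned slightly negative without a filter beyond 1 count (-0.015, where the median of all 46410 genes was 0.60), and with 1 library left out it ran from -0.071 to 0.34, below 0 without WT replicate 1 or 2 or without Nfkb2-/- replicate 1. The cause was not tested.

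The number of subunit genes called was 2 under DESeq2, 0 under the block, and 0 to 1 with 1 library left out. Over all genes, 149 were called lower and 99 higher. The counts were 943 and 947 under DESeq2, 243 and 245 under limma voom, 226 and 171 under filterByExpr, 756 and 869 without a filter, 270 and 189 with at least 10 counts in every library, and 0 and 0 under the block. With 1 library left out they ran from 0 to 567 and from 0 to 681, the highest without WT replicate 2. Of the 6 called pathway genes, the number became 16 under DESeq2, 19 without a filter, 0 under the block, and 0 to 18 with 1 library left out (18 without WT replicate 2, 3 without WT replicate 3). In the edgeR fits that called no gene, an unadjusted p under 0.05 was obtained for 3331 genes under the block, and for 2325, 4088, 2580 and 2726 genes without WT replicate 1 and without Nfkb2-/- replicate 1, 2 and 3.

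The deviations of libraries with the same replicate number correlated at 0.26, 0.15 and 0.022, against -0.24 to 0.16 for different numbers. Of 3 WT libraries, 2 correlated best with their own number. These correlations do not settle whether the numbers mark pairs. The study names no pairs, so the numbers were not taken as pairs and the block is given here only. No ratio could pass the adjusted threshold, since 3 against 3 cannot. The log2 difference of Rel over Rela turned from 0.088 to -0.011 without WT replicate 3. That of Relb over Rela turned from 0.021 to -0.083 without WT replicate 2. It was -0.028 without Nfkb2-/- replicate 1 and -0.0083 without Nfkb2-/- replicate 3. The other ratios kept their direction. Over the longest transcript, levels in CPM per kb were 105 (WT) and 111 (Nfkb2-/-) for Nfkb1, and 17.3 and 37.1 for Rela and Relb in Nfkb2-/- BMDCs. Of 230 alternative values in all, 179 counted as unchanged. Fold changes had to keep their direction and side of the threshold, and ratios and levels to move by less than the spread between replicates. Counts of called genes had to stay within a fixed ratio of the main count.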

Other observations

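The total counts of WT replicate 2 and Nfkb2-/- replicate 2, 31622131 and 31622146, differed by 15, whereas those of the other pairs of libraries differed by 1588950 or more. The counts themselves were not shared, since 612 of 22651 genes with at least 50 counts had equal counts in this pair, against 169 to 584 in the other pairs, and Nfkb2 measured 154 and 32.3 CPM in the 2 libraries.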
